A study of Mus musculus with 18 samples.

Results

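The subject here is the liver transcriptome of 6 wild-type C57BL/6J mice, 6 of the 18 livers sequenced. The 6 are the libraries whose titles name the wild-type, and every one of them was used. Males 1, 2 and 5 were 18.0, 17.9 and 17.6 weeks old, and females 3, 4 and 6 were 18.0, 17.9 and 17.1 weeks old. The labels give no treatment, and they do not give the hour of collection or the feeding state. The other 12 livers came from mice of the genotypes Dp16, a segmental duplication of mouse chromosome 16 used as a model of trisomy 21, and Dp16-2xIFNRs, a Dp16 line whose interferon receptor genes are restored to the wild-type copy number. They served only as separate livers in which the same measures were taken. The question was which genes and gene classes make up the RNA of an adult wild-type liver, which genes vary between livers, and which differ between the sexes.

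The liver is built mainly of hepatocytes, which secrete most of the proteins of blood plasma, store and release glucose, oxidise and make fatty acids, turn ammonia into urea and modify drugs and steroids. Smaller populations line its blood sinusoids, patrol them as resident macrophages (Kupffer cells), store vitamin A (stellate cells) or form the bile ducts. Liver transcription in rodents is known to follow the circadian clock, feeding and, through the pattern of growth hormone secretion, sex.

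The 6 libraries held 43561249 to 53105543 counts, with a mean of 48200000 ± 3650000 (SD, n = 6), and 16692 to 17752 genes had at least 1 count in a library. Levels are given as RPKM (counts scaled by the authors to the gene's length and the library's total), which allows genes of different length to be compared. Comparisons of 1 gene between livers are given as CPM (counts scaled to the library's total and its TMM factor, 0.910 to 1.11). The sexes of the labels were checked with the Y-linked helicase gene Ddx3y and with Xist, the RNA that silences an X chromosome. Ddx3y exceeded Xist in 3 of 3 males, and Xist exceeded Ddx3y in 3 of 3 females. The libraries also differed by gene length. The 863 genes of at least 7084 bases deviated from their mean by a median log2 of 0.50, 0.17 and -0.37 in males 1, 2 and 5, and of -0.08, 0.42 and -0.56 in females 3, 4 and 6. Genes of at most 1268 bases deviated the other way, by -0.38, -0.15 and 0.45 in the males and 0.09, -0.46 and 0.50 in the females. The labels call the livers separate samples and do not state their origin, so the p-values below measure the spread between these samples. Numbers in the sample descriptions of males 1 and 5 and female 3 recur in those of livers of the other genotypes. The meaning of these numbers is not given.

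The RNA of the wild-type livers was dominated by a small set of transcripts for secreted proteins, lipid carriers and the mitochondrial respiratory chain. The 10 most abundant genes held 25.2 ± 1.92% of the summed RPKM (SD, n = 6; 22.3 to 27.7%). It took 55.2 ± 7.11 genes to reach 50% of it, with 46 to 64 genes in single livers (110.3 genes on average as a share of counts), and 1604 ± 195.4 genes to reach 90%. The 100 most abundant genes held 56.8 ± 1.65%. By level, 74 genes had a mean RPKM of at least 1000 and held 53.2% of the RNA, 594 genes between 100 and 1000 held 27.7%, 2816 genes between 10 and 100 held 14.6%, and 6309 genes between 1 and 10 held 4.11%. An RPKM of at least 1 was reached in all 6 livers by 8040 genes, of which 7679 were protein coding, while 33620 of the 55385 genes of the table had no count in any of the 6.

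Alb, which encodes albumin, the main carrier protein of plasma, was the most abundant gene in each of the 6 livers. Its level was 34550, 29970 and 26320 RPKM in males 1, 2 and 5 and 46750, 48480 and 38310 RPKM in females 3, 4 and 6, with a mean of 37400 ± 8912. All 3 females lay above all 3 males on this scale, but the male minus female difference of -0.53 on the log2 CPM scale did not pass the test (adjusted p = 0.48, edgeR quasi-likelihood test with Benjamini-Hochberg adjustment). The 250 bases before its start are shown as the regulatory sequence of the most abundant transcript, from the RefSeq table for GRCm38.p6 (chr5:90460620-90460869, plus strand), with motif letters in capitals.

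Alb promoter: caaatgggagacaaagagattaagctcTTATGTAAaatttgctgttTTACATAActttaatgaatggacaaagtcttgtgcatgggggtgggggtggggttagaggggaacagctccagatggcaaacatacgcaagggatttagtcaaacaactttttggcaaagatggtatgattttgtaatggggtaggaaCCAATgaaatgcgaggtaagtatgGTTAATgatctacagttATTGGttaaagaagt

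The capitals mark TTATGTAA, the letters of a binding site for PAR bZIP factors such as DBP, GTTAAT, the first 6 letters of the HNF1 site, and CCAAT, each searched on both strands. Among all 32851 promoters of the table, taken as 300 bases, 37.4% held CCAAT, 7.10% held GTTAAT and 0.938% held TTATGTAA. Promoters of the 100 most abundant genes of the wild-type livers, 78 promoters of 66 genes found in the table, held them in 50%, 17.9% and 2.56% of cases. TATAAA, the letters of the TATA box, stood in 25.6% of these 78 promoters and in 13.6% of all. These are matches of letters in a window and no measure of binding.

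Transcripts for lipid carriers followed albumin in abundance. Within a sex Alb was the steadier, with an SD of log2 CPM of 0.10 against 0.19 for Apoa2, 0.25 for Apoe, 0.29 for Apoa1 and 0.63 for Apoc1. Apoe, the ligand by which the liver takes up lipoprotein remnants, reached 14380, 17260 and 16660 RPKM in males 1, 2 and 5 and 15740, 15390 and 18990 RPKM in females 3, 4 and 6. Apoa2 and Apoa1, the main proteins of high density lipoprotein, had means of 12930 ± 956.1 and 12660 ± 1909 RPKM. Apoc1, an inhibitor of lipoprotein lipase, was less even, from 6331 RPKM in female 4 to 13690 RPKM in female 6. Among other secreted or iron-handling products, Ttr, which carries thyroid hormone and retinol-binding protein, had a mean of 7498 ± 1146 RPKM, and Trf, the iron carrier transferrin, 6761 ± 888.4 RPKM. Fabp1, the fatty acid-binding protein of the hepatocyte, had 7132 ± 1914 RPKM, and Hamp, which encodes the iron hormone hepcidin, 3512 ± 1210 RPKM. By the range of RPKM over both sexes, the steadiest of the 25 most abundant genes was Gc, the vitamin D carrier. Its highest value was 1.22 times the lowest (3416 ± 259.8 RPKM). By the within-sex SD it was Ahsg, at 0.07 against 0.11 for Gc.

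**Figure D1:**
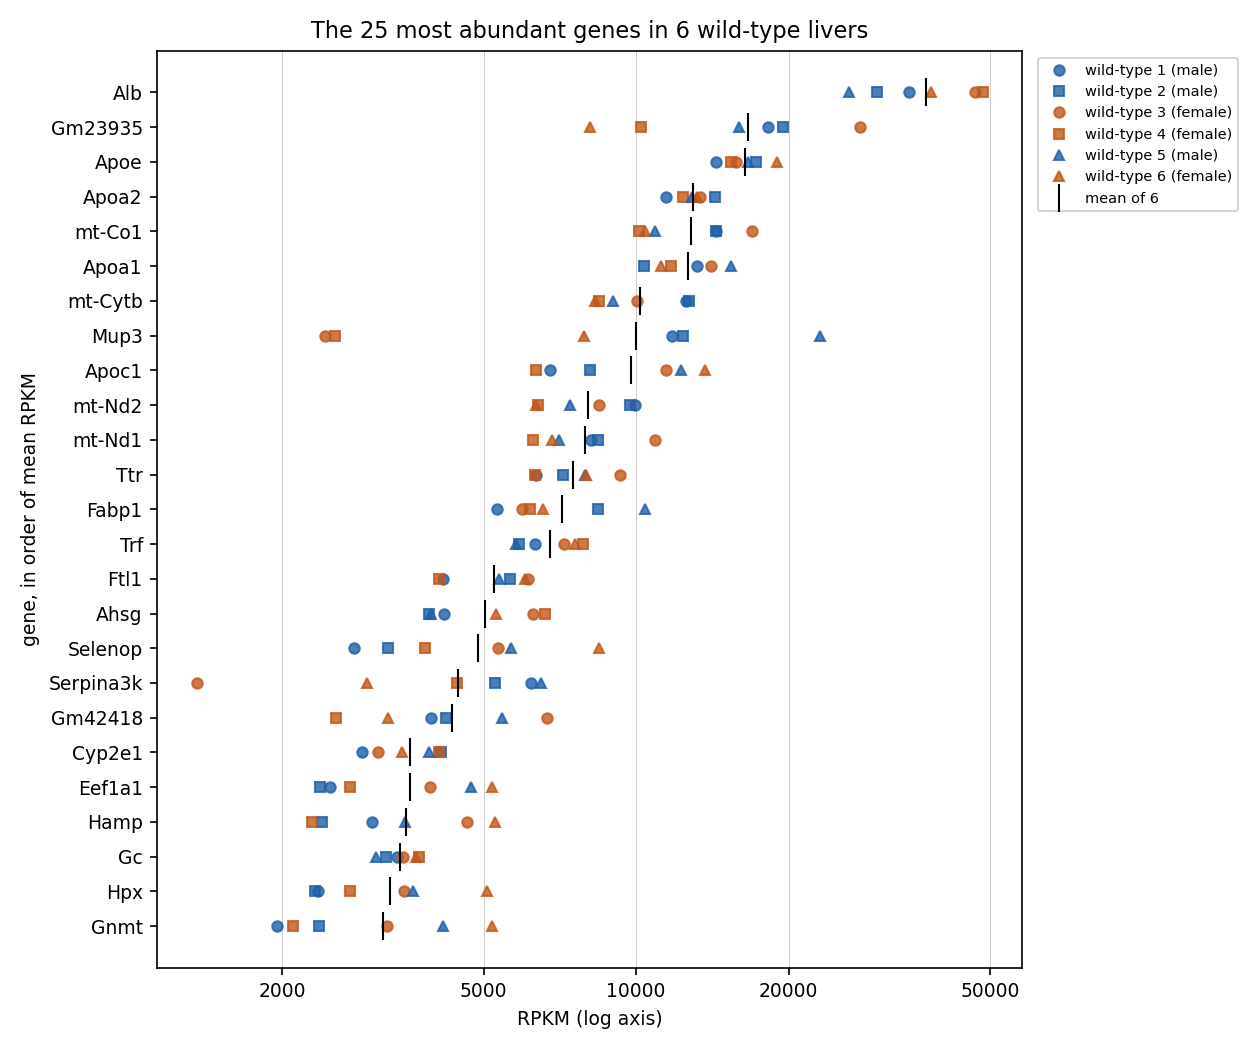
RPKM (log axis) of the 25 genes with the highest mean level, in order, with 1 mark for each of the 6 wild-type livers (blue for males, orange for females, shapes for libraries) and a black tick at their mean. Alb leads in every liver, Gc shows the tightest cluster, and Mup3 runs from 2432 RPKM in female 3 to 23110 RPKM in male 5.

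Mup3, the most abundant of the major urinary proteins, small pheromone carriers that pass from the liver into urine, took widely different ranks. It had 11770, 12350 and 23110 RPKM in males 1, 2 and 5 and 2432, 2545 and 7873 RPKM in females 3, 4 and 6. It was the second most abundant gene in male 5 and held rank 37 in female 3. Serpina3k, a protease inhibitor, also dropped far down the order in 1 liver, with 1354 RPKM and rank 55 in female 3 against 2944 to 6490 RPKM in the other 5. Of the 25 most abundant genes, 23 were also among the 25 most abundant in the other 12 livers. The exceptions were Cyp2e1, a P450 enzyme that oxidises ethanol, with rank 20 here and rank 34 there, and Gc, with ranks 23 and 26. Of the 100 most abundant, 97 were shared.

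By gene class, proteins made for the blood formed the largest part of the wild-type RNA. Plasma carriers and protease inhibitors held 15.9 ± 2.17% of the summed RPKM (SD, n = 6), from 13.2% in male 5 to 19.2% in female 4. Apolipoproteins held 10.4 ± 0.652%, and complement and coagulation factors 2.60 ± 0.530%. In that last class the 3 fibrinogen chains came close together, with mean levels of 1791 (Fgg), 1452 (Fga) and 1146 (Fgb) RPKM. Acute phase proteins held 1.67 ± 0.481%, led by Hamp and by Hp, the haemoglobin-binding haptoglobin, at 1926 ± 121.3 RPKM. Crp, a strongly induced acute phase protein in humans, stood at 180.9 ± 38.04 RPKM.

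Genes for intermediary metabolism took smaller shares. Urea cycle and amino acid catabolism held 2.74 ± 0.312%. Its leading gene was Gnmt, which consumes S-adenosylmethionine, at 3163 ± 1291 RPKM, followed by the urea cycle enzyme Ass1 at 2728 ± 716.2 RPKM. Fatty acid oxidation and PPAR alpha targets held 1.84%, of which Fabp1 was by far the largest member. Glycolysis and gluconeogenesis held 1.20%, with the gluconeogenic enzyme Fbp1 at 802.6 ± 108.6 RPKM and the glycolytic enzyme Gapdh at 786.3 ± 139.4 RPKM. Lipogenesis held 0.784%, led by the desaturase Scd1 at 2285 ± 723.0 RPKM, and ran from 0.464% in female 6 to 0.960% in female 3. As a share of counts, which is not divided by gene length, the order of these 3 classes reversed, with lipogenesis at 1.78%, glycolysis and gluconeogenesis at 1.46% and fatty acid oxidation at 1.27%. Bile acid synthesis and transport held 0.435% and cholesterol synthesis 0.277%.

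Genes for the handling of foreign compounds held a further few percent. The cytochrome P450 families 1 to 4 took 2.18 ± 0.344%, with Cyp2e1 at 3581 ± 527.8 RPKM, Cyp3a11 at 1049 ± 536.5 RPKM and Cyp2c29 at 791.5 ± 124.3 RPKM. Cyp3a11, a main drug-oxidising enzyme, ranged from 473.1 RPKM in male 1 to 2048 RPKM in female 6. Glutathione transferases took 1.03%, led by Mgst1 at 2011 ± 901.9 RPKM. Glucuronosyl- and sulfotransferases took 0.368%, led by Ugt2b36 at 355.4 ± 163.4 RPKM.

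**Figure D2:**
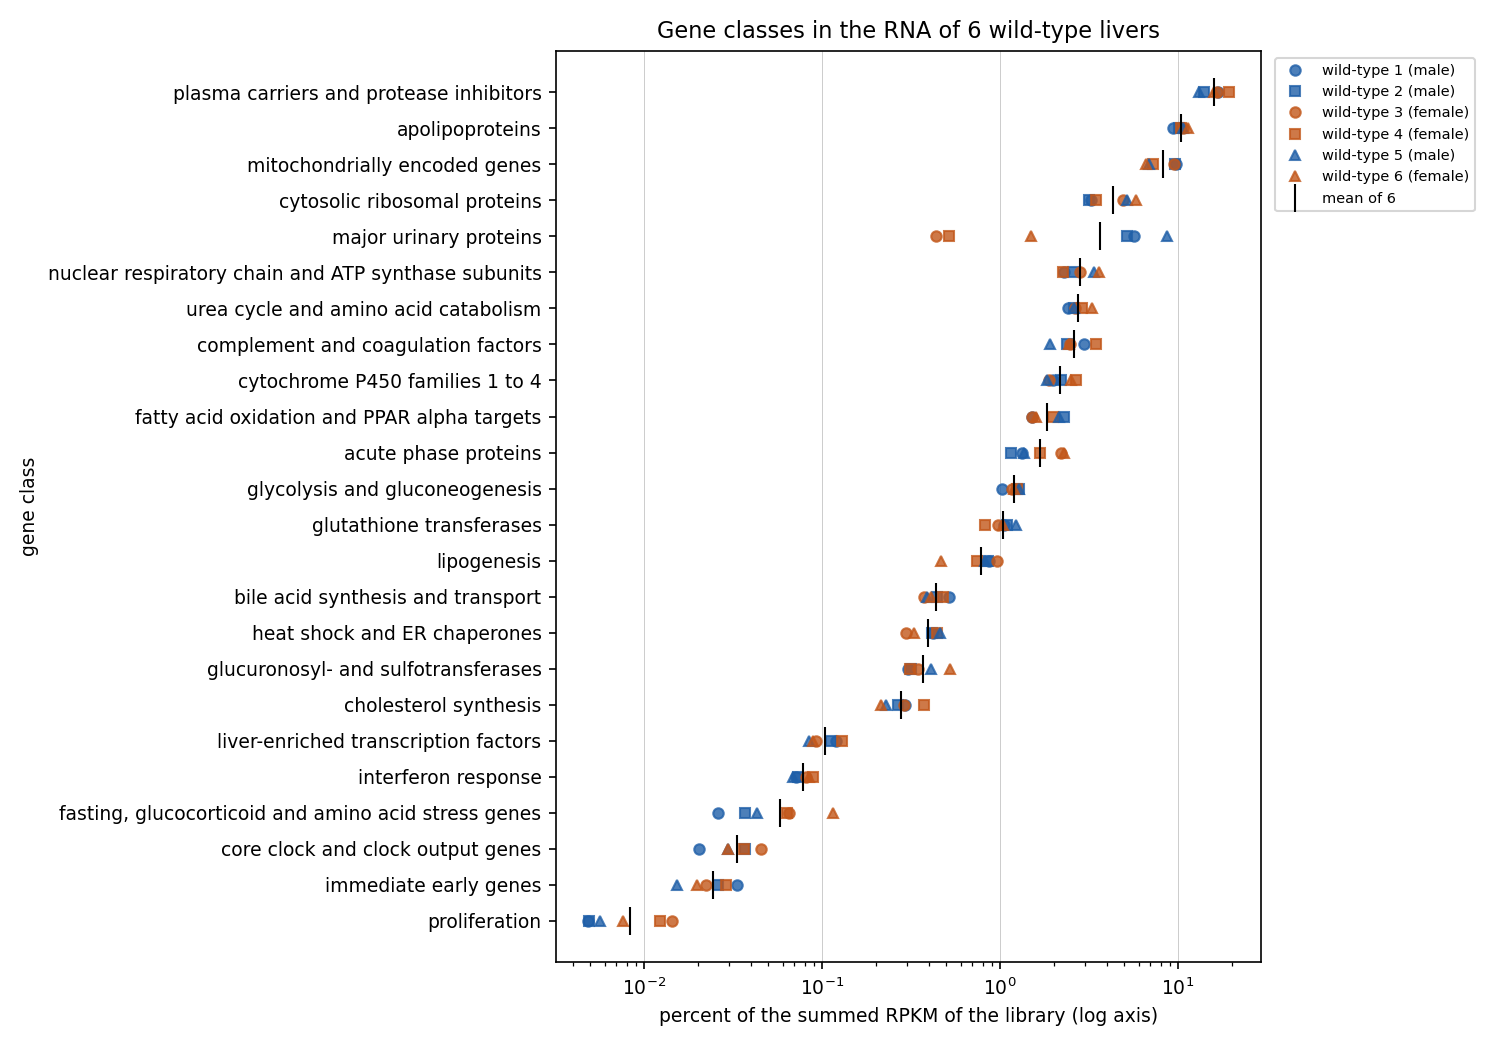
Percent of the summed RPKM (log axis) held by each gene class, with 1 mark for each of the 6 wild-type livers (blue for males, orange for females) and a black tick at their mean. The marks of a class lie close together for apolipoproteins and, among the classes drawn, furthest apart for the major urinary proteins, which run from 0.436% to 8.64%.

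The machinery of respiration and translation ordered the livers differently. Mitochondrially encoded genes held 9.76, 9.57 and 6.86% of the summed RPKM in males 1, 2 and 5 and 9.43, 7.24 and 6.57% in females 3, 4 and 6. Cytosolic ribosomal proteins held 3.26, 3.18 and 5.16% in the same males and 4.90, 3.46 and 5.82% in the same females. Nuclear-encoded subunits of the respiratory chain and ATP synthase held 2.82 ± 0.557%. Livers 5 and 6, of either sex, thus had the lowest mitochondrial and the highest ribosomal protein shares. They are also the 2 livers in which long genes stood lowest and short genes were raised, and whose numbers in the sample descriptions begin with other digits than those of the other 4. The part of gene length or of this numbering in the shares was not tested.

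Regulatory classes were small. Liver-enriched transcription factors together held 0.104%, led by Cebpa at 145.4 ± 36.6 RPKM and Hnf4a at 87.6 ± 18.5 RPKM. Interferon response genes held 0.0777%, from 0.0683 to 0.0887% in single livers, led by Bst2, which tethers budding viruses, at 149.5 ± 15.5 RPKM. Clock genes held 0.0332%, immediate early genes 0.0243% and proliferation genes 0.00829%. Stress chaperones stood higher, at 0.394%, led by the calcium-binding chaperone Calr at 473.7 ± 124.5 RPKM.

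Protein-coding genes held 94.7 ± 1.53% of the summed RPKM and 98.2% of the counts. Most of the remainder came from 1 short locus, 1 locus annotated as a long non-coding RNA and the mitochondrial ribosomal RNAs. Genes of the type miRNA held 3.00 ± 1.21% of the summed RPKM but 0.101% of the counts, and nearly all of it belonged to Gm23935. This locus of 57 bases (chr16:11144125-11144181 of GRCm38, plus strand) is shorter than a read of 150 bases and ranked as the second most abundant gene by RPKM. It is shown because its level depends on the scale more than that of any other leading gene, at 2.84% of the summed RPKM and 0.0947% of the counts.

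Gm23935: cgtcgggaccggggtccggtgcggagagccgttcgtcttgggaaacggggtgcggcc

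The same 57 bases stand in the transcripts of Gm24245 and Gm24270, and Gm24270 was itself measured at 522.7 RPKM. Gm23935 had 18240, 19530 and 15940 RPKM in males 1, 2 and 5 and 27640, 10210 and 8100 RPKM in females 3, 4 and 6, a range of 3.41 times. Long non-coding RNAs held 1.08 ± 0.231%, of which Gm42418 alone, at 4336 ± 1495 RPKM, made 0.736%. Gm42418 lies at chr17:39846958-39848788 and contains AY036118 (73.6 RPKM) on the other strand. The next long non-coding RNAs were AW112010 at 104.3, Gm20319 at 72.4 and BC024386 at 59.3 RPKM.

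Levels of the mitochondrially encoded genes were very uneven, and several of these genes share sequence with nuclear copies. mt-Co1, a catalytic subunit of cytochrome oxidase, had 12840 ± 2774 RPKM, mt-Cytb, of the cytochrome bc1 complex, 10180 ± 2016, and the complex I subunits mt-Nd2 and mt-Nd1 8048 ± 1586 and 7920 ± 1664. The other cytochrome oxidase subunits mt-Co2 and mt-Co3 stood at 210.0 ± 66.4 and 215.5 ± 184.9 RPKM, and the ATP synthase subunit mt-Atp6 at 167.5 ± 72.6. Of the 150-base windows of mt-Co3, 99.8% occur also in another gene of the annotation, as do 99.4% of those of mt-Co2 and of mt-Atp6, against 59.2% for mt-Nd4, which had 2889 RPKM, and 23.6% for mt-Co1. Low levels were also seen for mt-Nd6, at 69.5 RPKM, and mt-Atp8, at 67.2 RPKM. None of their windows, only 55 for mt-Atp8, occur in another annotated transcript. Copies outside annotated transcripts were not searched, so this does not show that their reads fit nowhere else. The 783 bases of Gm28437, a pseudogene on chromosome 1, match mt-Co3 without a mismatch, and Gm28437 was measured at 584.5 ± 328.8 RPKM. The 5 chromosome 1 copies, chosen after their values were seen, together held 0.0949 ± 0.0411% of the counts. The labels do not say how reads that fit more than 1 gene were counted, so the levels of these genes are uncertain.

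The labelled tissue was checked against marker genes. The 8 hepatocyte markers held 8.66 to 13.7% of the summed RPKM. Markers of pericentral hepatocytes, led by Cyp2e1, held 0.809 to 1.19%, and those of periportal hepatocytes, led by Ass1, 0.772 to 1.13%. In bulk tissue, fewer cells of a type and less RNA per cell cannot be told apart. The 10 Kupffer cell markers held 0.0356 to 0.0453% in males and 0.0589 to 0.0801% in females. The complement subunit gene C1qa, the highest of them, measured 63.1, 56.6 and 60.6 RPKM in males 1, 2 and 5 and 117.6, 86.0 and 99.7 RPKM in females 3, 4 and 6. All 3 females lay above all 3 males, but no Kupffer marker passed the sex test. Among all 14640 genes tested, the CPM ranges of the sexes did not overlap for 7.43% with males higher and for 7.88% with females higher. Sinusoidal endothelial markers held 0.00889 to 0.0159% and stellate cell markers 0.0106 to 0.0127% in males and 0.0158 to 0.0175% in females. Of the markers of tissues next to the liver, those of acinar pancreas held 0.000223% on average, with Prss2, Pnlip, Clps and Cpb1 at 0 counts. The 6 listed fat cell markers together held 0.263%, of which Car3, at 1522 ± 727.2 RPKM, made 0.262%. Of these 6, Adipoq and Lep, which define fat cells, were at 0 in all 6 livers.

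Genes that vary between livers were ranked by the pooled SD of log2 CPM among livers of the same sex (4 degrees of freedom). A difference between the means of the sexes thus adds nothing. A gene near 0 counts in 1 sex can still gain spread there. A1bg, for example, had 0.350, 0 and 0 CPM in males 1, 2 and 5, but log2 values of -1.35, -4.59 and -4.59. Among 8630 genes with a mean of at least 5 CPM, the median SD was 0.35, and 193 genes (2.24%) had an SD of at least 1. The 25 named genes with the largest spread included 7 major urinary proteins and the clock genes Dbp and Arntl, beside genes of many other functions. At the other end, the initiation factor gene Eif5 had an SD of 0.02 on this scale, with 147.0, 152.0 and 147.5 CPM in males 1, 2 and 5 and 140.2, 139.0 and 139.3 CPM in females 3, 4 and 6. Masp2, a protease that starts the lectin pathway of complement, the exon junction protein gene Rbm8a, Scarb2, H2-D1, the mitochondrial pore gene Vdac1, Gnpat and Seh1l followed, with SDs of 0.02 to 0.04.

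**Figure D3:**
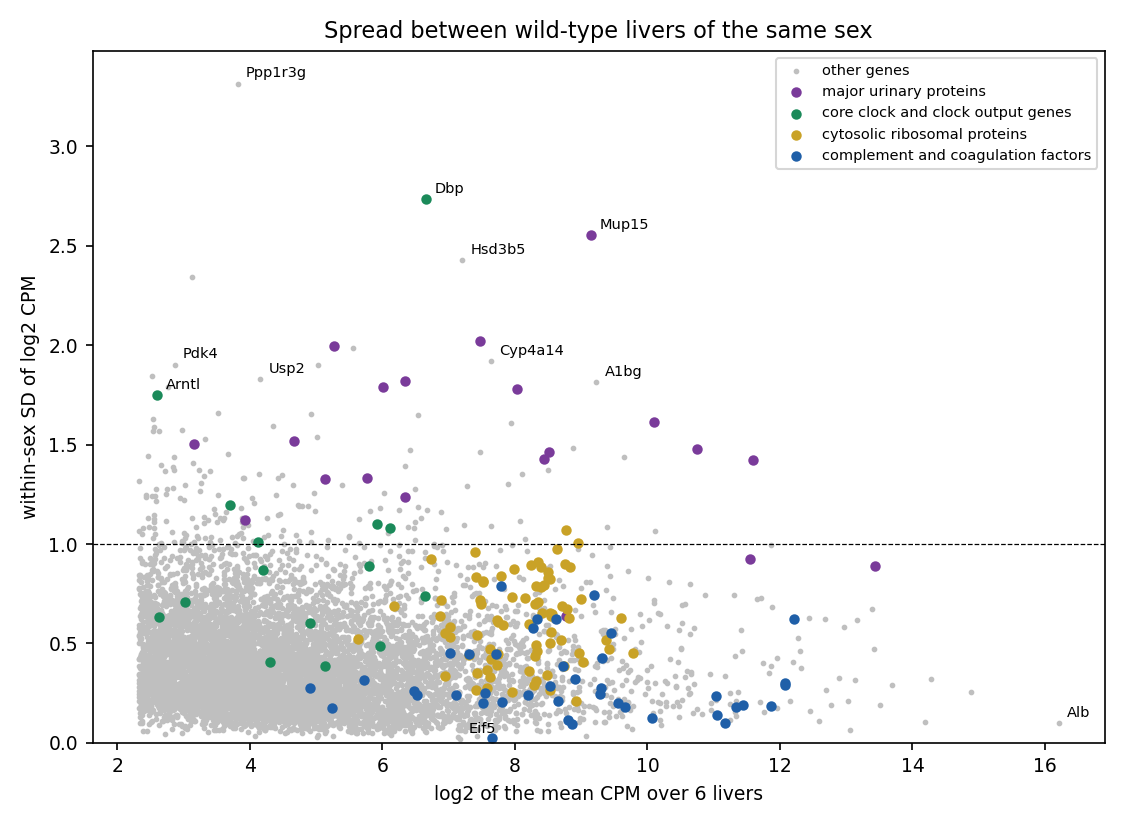
Within-sex SD of log2 CPM (vertical axis) against the log2 of the mean CPM for 8630 genes in 6 wild-type livers, with 4 gene classes in colour and a dashed line at an SD of 1. Grey points crowd below the line around the median of 0.35, 17 of 20 major urinary proteins lie above it, and complement genes lie low, with a median of 0.25.

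The largest spread belonged to Ppp1r3g, a subunit that targets protein phosphatase 1 to glycogen. It had 0, 9.60 and 5.76 CPM in males 1, 2 and 5 and 33.3, 3.85 and 31.9 CPM in females 3, 4 and 6, with an SD of 3.32. Male 1 stood alone with no counts. Cyp4a14, a fatty acid hydroxylase under PPAR alpha, had 4.02, 148.2 and 21.5 CPM in the males and 188.2, 555.4 and 274.4 CPM in the females, with an SD of 1.92. Pdk4, which shuts pyruvate out of oxidation, was lowest in male 5 at 0.573 CPM and highest in male 1 at 14.7 CPM. Chka, a choline kinase, was highest in male 1 at 68.6 CPM, while the other livers had 4.41 to 20.4 CPM. Nr4a1, an immediate early nuclear receptor, was highest in female 4 at 16.2 CPM and male 2 at 12.1 CPM, with 1.71 to 3.17 CPM in the other 4. The remaining genes among the 25 with the largest spread and a gene name other than a predicted or clone name were Usp2, A1bg, Tff3, Hsd3b5, Shank2, Moxd1, Rgs16, Tafa2, Slco1a1, Wdfy1, Cfd, Dbp, Arntl and 7 major urinary proteins, Mup15, Mup12, Mup19, Mup18, Mup22, Mup1 and Mup14. The last of the 25 had an SD of 1.57 and the next gene 1.54. Of the 25, 7 also differed between the sexes, against 0.977% of all 14640 genes tested.

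Several clock genes set male 1 apart from the other 5 livers. Dbp, a transcription factor at the output of the clock, had 1.20, 72.5 and 148.8 CPM in males 1, 2 and 5 and 209.5, 51.4 and 123.5 CPM in females 3, 4 and 6. Male 1 was far below the other 5. Arntl, which encodes the activator BMAL1, ran the other way, with 22.7, 4.33 and 1.17 CPM in the males and 1.45, 5.75 and 1.05 CPM in the females. Male 1 held its highest value. Npas2, an activator that pairs with BMAL1, also peaked in male 1 at 7.73 CPM, with no counts in male 5, and so did the repressor gene Nfil3 at 44.3 CPM against 4.08 to 17.6 CPM elsewhere.

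Some other clock genes stood low in male 1. Per3 had 0.206 CPM there and 2.62 to 11.2 CPM in the other 5 livers, Ciart 0.0824 CPM against 0.444 to 10.4 CPM, and Per1 1.79 CPM against 9.96 to 23.3 CPM. Tef, a relative of Dbp, had 14.3 CPM in male 1 and 40.2 to 99.1 CPM elsewhere. Nr1d1, which encodes the repressor REV-ERB alpha, took another order, with 40.7, 120.4 and 15.5 CPM in the males and 73.0, 104.5 and 62.3 CPM in the females, so that male 2 and female 4 were high and male 5 was low. Bhlhe40 followed a similar order, with its highest values in male 2 at 171.2 CPM and female 4 at 134.3 CPM. Usp2 and Rgs16, known as rhythmic in mouse liver, were lowest in male 1, at 2.16 and 6.06 CPM.

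Among the 15 clock genes with at least 5 CPM, male 1 held the highest value of 5 and the lowest of 7, whereas over all 8630 genes it held the highest value of 25.2% and the lowest of 16.9%. The median SD of these 15 genes was 0.87, and 6 of them had an SD of at least 1. With a trend on gene length removed from each library, the median was 0.83 and the count 7. None of the 19 listed clock genes passed the sex test. As the hour of collection is not in the labels, it and other differences between the animals cannot be told apart.

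**Figure D4:**
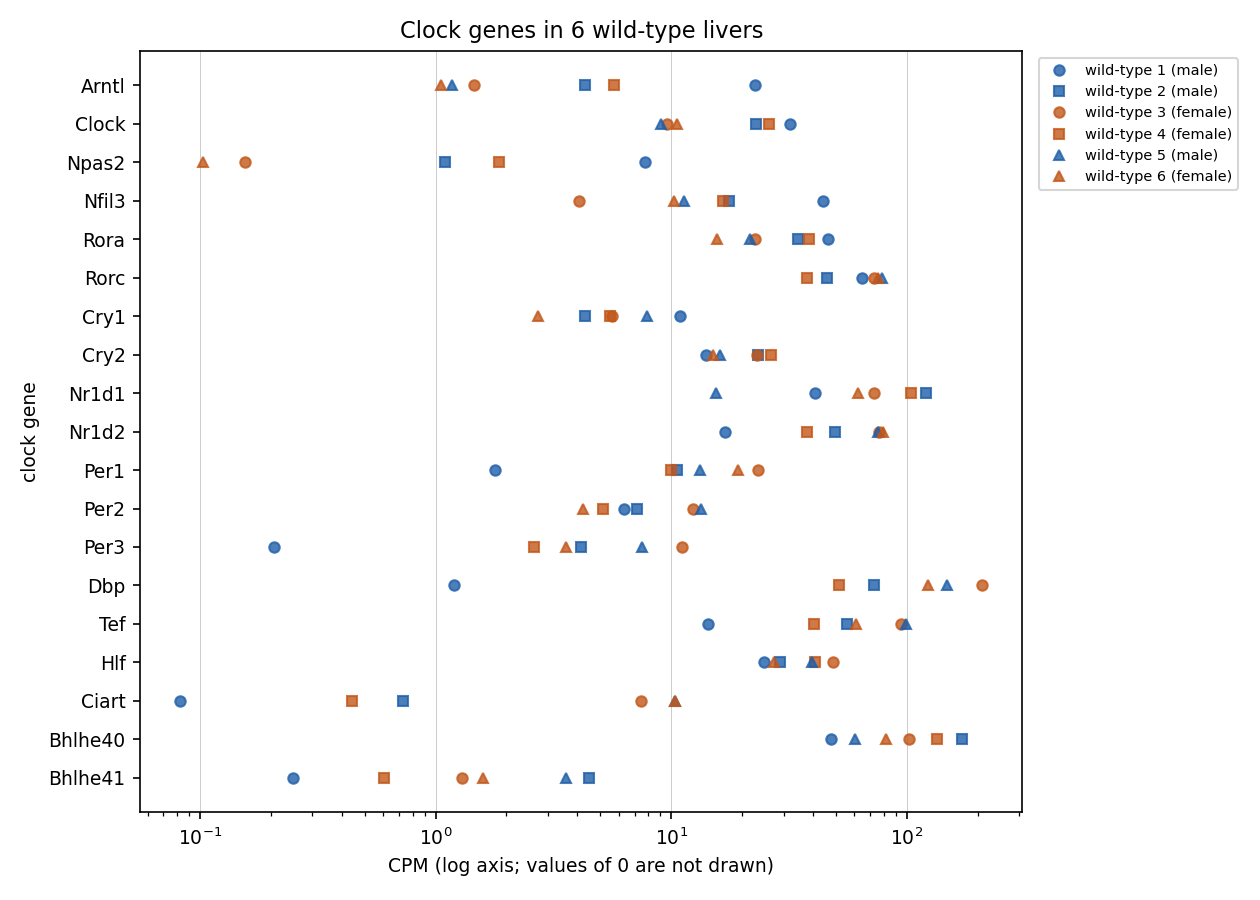
CPM (log axis, values of 0 not drawn) of listed clock genes, with 1 mark for each of the 6 wild-type livers (blue for males, orange for females). Male 1 lies furthest left for Dbp, Per3, Ciart, Per1 and Tef and furthest right for Arntl, Npas2 and Nfil3.

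For the clock genes, 21 promoters of 16 genes were found in the table. CACGTG, the E-box letters bound by CLOCK and BMAL1, stood in 6 of these 21 (28.6%), against 7.15% of all promoters. The promoters of the 50 genes with the largest spread, 47 promoters of 33 genes, held it in 6.38%. CCAAT was also more frequent, in 76.2% of the clock promoters and 66.0% of the largest-spread promoters, against 37.4% of all.

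Genes of fasting, glucocorticoid and amino acid stress also differed between animals. Of the 16 with at least 5 CPM, 5 had an SD of at least 1, and 2 after removal of the length trend. Tsc22d3, a glucocorticoid target, had 29.3, 71.8 and 123.7 CPM in males 1, 2 and 5 and 81.1, 45.3 and 151.2 CPM in females 3, 4 and 6. Lpin1, a phosphatidate phosphatase and coactivator, had 40.5, 59.98 and 190.7 CPM in the males and 121.4, 60.4 and 183.5 CPM in the females. Livers 5 and 6 were the highest for both genes. Irs2, an adaptor of the insulin receptor, was instead highest in female 4, at 56.4 CPM, with 6.01 to 15.8 CPM in the other 5 livers.

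The major urinary proteins varied within each sex in a common order. Of the 20 members with at least 5 CPM, all had their highest value in male 5, and the lowest fell in female 4 for 16 and in female 3 for the other 4. Their median SD was 1.47, and 17 of 20 had an SD of at least 1 (15 with the length trend removed). Mup15 had 847.3, 885.7 and 1586 CPM in males 1, 2 and 5 and 2.24, 0.625 and 79.0 CPM in females 3, 4 and 6. Female 6 thus lay far above the other 2 females. Mup18 had 80.9, 105.7 and 243.2 CPM in the males and 4.72, 1.88 and 50.4 CPM in the females, and Mup22 reached 115.4 CPM in female 6, close to the 118.8 CPM of male 5. Members of the family are near copies: 90.7% of the 150-base windows of Mup15 occur in another gene, as do 86.3% of those of Mup18 and 100% of those of Mup22. The split of reads among them is therefore uncertain, and their common direction is not a count of independent genes.

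The start regions of 5 members are shown to compare the near copies with the more distinct Mup3 and Mup21. Each is 47 bases of chromosome 4, minus strand, from the RefSeq table for GRCm38.p6, with 20 bases on either side of TATATAA in capitals. Mup3 is at chr4:62087302-62087348, Mup21 at chr4:62150823-62150869, Mup15 at chr4:61439703-61439749, Mup18 at chr4:61674096-61674142 and Mup19 at chr4:61782229-61782275.
Mup3: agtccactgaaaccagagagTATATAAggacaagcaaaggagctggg
Mup21: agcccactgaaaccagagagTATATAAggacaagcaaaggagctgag
Mup15: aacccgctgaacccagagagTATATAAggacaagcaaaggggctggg
Mup18: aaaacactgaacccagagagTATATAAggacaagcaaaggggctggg
Mup19: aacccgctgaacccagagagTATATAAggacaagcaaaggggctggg

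Over these 47 bases Mup21 differs from Mup3 at 2 positions and each of the other 3 at 5 positions. On either strand the letters TATATAA stood in 13 of 14 promoters of the family (92.9%) and in 3.24% of all promoters.

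Ribosomal protein and nuclear respiratory genes formed a broad group of moderate spread. The 78 ribosomal protein genes had a median SD of 0.62, with 59 lowest in female 4 and 63 highest in female 6. The 78 nuclear respiratory genes had a median SD of 0.52, with 72 lowest in female 4 and 48 highest in female 6. Rpl36 had 442.7, 448.8 and 1107 RPKM in males 1, 2 and 5 and 844.9, 434.0 and 1311 RPKM in females 3, 4 and 6. Livers 5 and 6 stood highest. With a trend on gene length removed from each library, the median SD fell to 0.28 and 0.18 in these 2 classes, and from 0.35 to 0.28 over all genes. Complement and coagulation genes, by contrast, stayed at 0.25.

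Spread was also measured in livers of the other genotypes. The same within-sex SD was taken within genotype in the other 12 livers. Of the 25 named genes, 19 had an SD of at least 1 there, where 1.38% of 8606 genes did. Dbp was again among them at 3.05, with Arntl at 2.25 and Rgs16 at 2.26, whereas Ppp1r3g had 0.83, Tafa2 0.59 and Shank2 0.81. Of the 50 genes with the largest spread in wild-type, 44 were measured in the other 12, 16 were among the 50 with the largest spread there, and 42 lay in the top 5%. Within single groups the median SD was 0.43 in Dp16 and 0.25 in Dp16-2xIFNRs livers, against 0.35 in wild-type; these differences were not tested.

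The labels divide the 6 livers into 3 males and 3 females, and genes that differed between them included enzymes of steroid, drug and lipid metabolism, pheromone carriers and secreted proteins. Age and the numbering of the sample descriptions also differed among the 6; with the numbering as a term the count of calls given next was 297. Of 14640 genes tested with the edgeR quasi-likelihood test, 143 (0.977%) had a Benjamini-Hochberg adjusted p under 0.05. Of these, 73 (0.499%) were higher in males and 70 (0.478%) in females, and 1221 genes had an unadjusted p under 0.05. The differences were large: 115 of the 143 were at least 4-fold, and 121 were protein coding. Only 7 lay on the sex chromosomes, 4 on Y and 3 on X. In 24 of them 1 sex had no more than 3 counts in all. A list of liver genes known from textbooks as higher in males had 14 of 20 tested genes called higher in males. The corresponding female list had 22 of 24 called higher in females, and neither list had a call in the opposite direction. Both lists were chosen with earlier results of these data known, so they are no independent check. The median male minus female difference was 4.13 on the log2 scale over the male list. Over the female list it was -9.02, also with genes without counts set at their bound, and that of all genes tested was -0.00264. Summed levels of the Kupffer cell, stellate cell, T and NK cell and B and plasma cell markers were also higher in all 3 females than in any male. The T and NK cell markers held 0.00127 to 0.00327% in females and 0.000678 to 0.000881% in males, and the B and plasma cell markers 0.00796 to 0.0227% and 0.0051 to 0.00694%. None of the markers of these 4 lists was called, and their part in the female calls was not tested. Such a separation was not particular to these 4 lists. Sums of the acute phase, interferon response and periportal hepatocyte lists, among others, were also higher in all 3 females than in any male. Those of the erythroid and fat cell markers were higher in all 3 males than in any female. The median log2 difference of the erythroid markers tested was nevertheless -0.93, towards females. Car3 made 0.262% of the 0.263% held by the fat cell markers.

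Genes higher in males included P450 enzymes, steroid enzymes and urinary proteins. Cyp2d9, a steroid hydroxylase, had 1315, 1425 and 1389 CPM in males 1, 2 and 5 and 40.0, 56.4 and 50.7 CPM in females 3, 4 and 6, a log2 difference of 4.81 ± 0.26 (SE; adjusted p = 0.000283, edgeR). The groups were far apart and tight. Cyp4a12a and Cyp4a12b, arachidonic acid hydroxylases that respond to androgen, reached 258.8 to 393.0 and 108.9 to 166.7 CPM in males and at most 0.373 and 0.0967 CPM in females. Cyp7b1, an oxysterol and steroid hydroxylase, had 339.7, 247.2 and 259.0 CPM in males and 12.4, 21.1 and 25.7 CPM in females. Hsd3b5, a steroid dehydrogenase of mouse liver, had 231.2 to 386.6 CPM in males and 0 to 2.68 CPM in females. Elovl3, a fatty acid elongase, had 848.6, 473.3 and 97.8 CPM in males and 1.61, 1.96 and 5.13 CPM in females, with male 5 low among the males.

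Among secreted products, Mup20, also named darcin, had 3726, 3023 and 10980 CPM in males 1, 2 and 5 and 39.2, 24.4 and 77.8 CPM in females 3, 4 and 6, a log2 difference of 6.97 ± 0.74 (adjusted p = 0.004006, edgeR). Of 22 major urinary protein genes tested, 6 were higher in males: Mup20, Mup21, Mup14, Mup7, Mup1 and Mup8. Mup3, the most abundant, differed by 1.86 on the log2 scale and did not pass the test (adjusted p = 0.34, edgeR). Serpina1e, an alpha-1-antitrypsin gene, had 14300, 2794 and 4721 CPM in males and 80.5, 219.1 and 158.4 CPM in females. The terminal complement gene C6 had 210.9 to 446.2 CPM in males and 13.4 to 18.6 CPM in females, and C9 460.8 to 630.9 against 157.0 to 244.8 CPM. Gstp1, a glutathione transferase, and Selenbp2, a selenium-binding protein, were also higher in males. Alas2, the erythroid form of the first enzyme of haem synthesis, had 142.2, 170.5 and 142.7 CPM in males and 7.66, 12.3 and 15.5 CPM in females, a log2 difference of 3.68 ± 0.31 (adjusted p = 0.001052, edgeR). The other erythroid markers tested did not pass, and Hba-a1 and Hba-a2 had differences of -0.93 and -1.01, towards females. Cfd, adipsin of the complement system, is also a fat cell marker and had 1.18, 19.2 and 14.4 CPM in the males and 1 count in the 3 females together, while Adipoq and Lep were at 0 in both sexes.

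Females were marked by genes with few or no reads in males. Cyp2b13, a P450 enzyme, had no counts in the 3 males and 156.6, 169.8 and 185.4 CPM in females 3, 4 and 6, at least 7930-fold higher in females against a floor of 3 counts over the males. Cyp3a41a had 1 count in the 3 males together and 23070 in the females, a ratio of 21500 with a 95% counting interval of 3870 to 851000 that covers counting error only. Of its 150-base windows 82.9% occur in another gene, so its reads may be split among copies. The sulfotransferases Sult2a2 and Sult2a1, which act on bile acids and steroids, had no counts in males. They were at least 9280-fold and 6090-fold higher in females, although female 4, at 53.7 and 21.8 CPM, lay well below females 3 and 6.

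Further female genes were spread over several classes. Cyp2b9 had 308.4, 431.4 and 460.1 CPM in females 3, 4 and 6 and at most 0.294 CPM in males, and Cyp2a4, a steroid 15-alpha-hydroxylase, 1234, 448.4 and 840.0 CPM against at most 2.37 CPM. Of 62 P450 genes tested, 13 were higher in females and 4 in males, against 0.478% and 0.499% of all genes tested. Hamp2, the second hepcidin gene, had 1610, 385.5 and 1413 CPM in females and 8.08, 9.54 and 19.9 CPM in males, whereas Hamp differed by -0.45 on the log2 scale and did not pass (adjusted p = 0.88, edgeR). Cux2, a transcription factor of female liver, had 35.9, 33.0 and 22.0 CPM in females and 0.175 to 0.701 CPM in males. Ccnd1, cyclin D1, had 207.9, 145.6 and 80.6 CPM in females and 24.1 to 31.2 CPM in males, and no other proliferation gene passed the test. Mt1, a metal-binding metallothionein, had 162.3, 125.6 and 430.4 CPM in females and 5.42, 3.80 and 18.6 CPM in males. The organic anion transporter gene Slco1a4, the acyl-CoA thioesterase genes Acot3 and Acot4, A1bg and the organic anion transporters Slc22a26 and Slc22a27 were also higher in females.

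**Figure D5:**
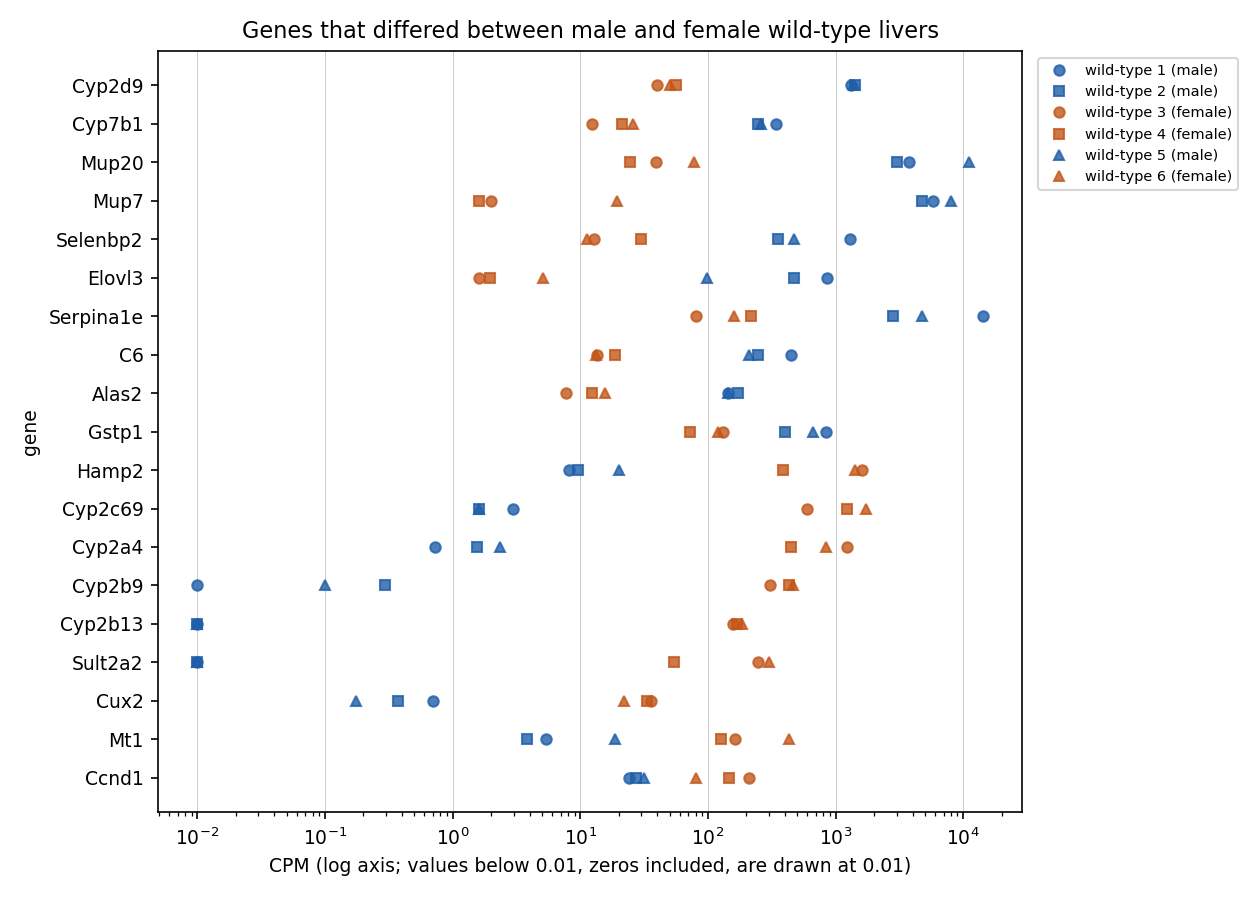
CPM (log axis, values below 0.01 drawn at 0.01) of genes that differed between male (blue) and female (orange) wild-type livers, with 1 mark for each of the 6 livers. The colours do not mix in any line, and the gap is widest for genes without counts in males, such as Cyp2b13 with 156.6 to 185.4 CPM in females.

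Promoters of the genes higher in females, 65 promoters of 49 genes found in the table, held GTTAAT in 16.9% of cases, and those of genes higher in males, 53 promoters of 45 genes, in 5.66%. The share was 7.10% over all promoters and 17.9% over those of the 100 most abundant genes, so it is not particular to the female genes.

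The sex differences of wild-type were set beside those of the other 12 livers, which share no library with them. Some of the 12 share a number in the sample descriptions with a wild-type liver. There, 553 of 15933 genes (3.47%) were called with genotype as a term, 1.72% higher in males and 1.75% higher in females. Of the 143 genes called in wild-type, 142 were tested there, all 142 with the same direction, and 127 were called in both, which is 88.8% of the wild-type calls and 23.0% of the others. Cyp2d9 differed by 5.99, Mup20 by 7.27, Hamp2 by -5.48 and Alas2 by 3.41 on the log2 scale in the other 12. Fgl1, a secreted fibrinogen-like protein of the liver, was a case in which the values stood apart. It had 132.1, 96.6 and 153.1 CPM in wild-type males and 416.4, 548.4 and 562.4 CPM in wild-type females, a log2 difference of -2.0 ± 0.27 (adjusted p = 0.01157, edgeR), against -0.21 in the other 12 livers (adjusted p = 0.66, edgeR). The test of the difference between these effects did not pass (adjusted p = 0.29, edgeR). The interferon-induced GTPase genes Igtp and Gbp3 were also called in wild-type, with -1.13 and -1.72, and not in the other 12, with -0.42 and -0.58. Over 16546 genes, the difference of the sex effect between wild-type and the other livers was called for 0 genes by edgeR (779 at an unadjusted p under 0.05) and for 14 by DESeq2.

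The number of calls moved with single livers. The count of 143 was 62 without female 3 and 75 without male 2, and the count of 70 higher in females was 44 without male 1. Igtp kept its call in 10 of 18 other settings, Cfd and Hsd3b5 in 11, Acot4 and Gbp3 in 12, C9 in 13 and Mt1, Mup1 and Sult2a1 in 14, and 21 of the 44 named genes kept it in all 18, with no direction reversed. The settings include other tools, filters and terms as well as left-out livers. The log2 difference of Igtp stayed between -1.19 and -1.07, that of C9 between 1.36 and 1.71 and that of Acot4 between -2.20 and -1.65, also where the call was lost, while that of Cfd ran from 3.20 to 12.12.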

How the data were processed

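Polyadenylated RNA from 18 livers was sequenced as strand-specific paired-end libraries of 150 bases, per the labels' protocols. The table of counts deposited by the authors holds whole reads per gene for 55385 genes. The RPKM table deposited by the authors divides these counts by library total and gene length, and the length implied by both tables was equal between libraries within 1% for 15673 of 15673 genes with at least 10 counts in more than 1 library. Per the submitters' processing notes, the tools were HTSeq 0.6.1, HISAT2 2.1.0, FastQC 0.11.5, SAMtools 1.5 and bcl2fastq, on GRCm38. By the names of the authors' tables, genes follow GENCODE M24. The strand setting was not given in the sources used here. Coordinates and 150-base windows came from GENCODE M21, which holds 98.4% of the identifiers, and promoters from a RefSeq table of GRCm38.p6.

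Shares are percent of the summed RPKM of a library. Sex was tested on the counts of the 6 wild-type libraries (filterByExpr, TMM, robust edgeR 4.0.16 quasi-likelihood test, R 4.3.3, p adjusted by Benjamini-Hochberg across the tested genes, threshold 0.05), and in the same way in the other 12 libraries with genotype as a term. An interaction fit of all 18 tested the difference. The common biological coefficient of variation in wild-type was 0.405. Spread is the within-sex SD of log2 CPM with a prior count of 2. Folds against 0 counts use a floor of 3 counts over the group. The fits were tested on simulated data. Exact tests of shares were not run, since 3 against 3 libraries cannot give an exact permutation p below 0.1.

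Genes were named by rule: the 25 most abundant, the 3 highest of each list, the 5 highest long non-coding RNAs, the 25 with the largest spread and the 8 with the smallest (mean CPM at least 20) without predicted or clone names, and for sex the 12 largest called changes in each direction and up to 4 called genes of each list. Other genes named, among them members of the clock and marker lists, were taken from those lists to show their values. The gene lists came from general knowledge of liver, and the subject and lists were chosen with earlier results of these data known. Alternatives were DESeq2 1.42.0, limma-voom (limma 3.58.1), DESeq2 size factors, other filters, scales and denominators, age or the numbering of the sample descriptions as a term, and each library left out. Removal of the gene length trend, and the analysis without livers 5 and 6, were chosen after seeing the data. Some genes that these rules name are not reported here.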

Additional observations from a re-analysis of the deposited data

Results flagged for a closer look

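Of 76 values per gene or class examined over the 6 wild-type livers, 2 had a single liver far from the others by Dixon's criterion. Chance gives about 1 in 20 groups, so 2 of 76 is no more than that rate. Both belonged to male 1. The genes, Ppp1r3g and Dbp, are also the 2 named genes with the largest within-sex spread in these same livers (SD 3.32 and 2.73). The log2 CPM of Ppp1r3g, the glycogen-targeting phosphatase subunit, was -4.59 in male 1 against 1.96 to 5.06 in the other 5 livers, a gap of 0.679 of the whole range. It had no counts in male 1, so that value is the floor set by the prior count. The log2 CPM of the clock output gene Dbp was 0.31 in male 1 against 5.69 to 7.71 in the others, a gap of 0.727 of the whole range.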

How the results depend on the processing

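The count of 143 sex calls in wild-type was 441 with DESeq2 (223 higher in males, 218 in females), 297 with the description numbering as a term (160 and 137), 226 in a fit of all 18 libraries (120 and 106) and 224 with the gene length trend removed (119 higher in males). With age as a term 120 were higher in males. Leaving out 1 library gave 62 to 122 calls, 28 to 64 higher in males and 34 to 62 in females. The difference of the sex effect from the other livers was called for 14 genes by DESeq2. Of the 50 genes with the largest spread, 32 remained with variance stabilised counts, 17 with the SD over all 6 livers, 18 and 28 with a mean CPM of at least 1 and 20, 24 without livers 5 and 6, and 32 to 44 without 1 library (32 without male 1 or female 6). By counts the 10 most abundant genes held 21.1%, and 110.3 genes held 50%; without mitochondrially encoded genes 66.5 did. An RPKM of at least 0.1 in all 6 livers was reached by 12348 genes, and 10 counts by 12417. The cause of these changes was not tested. No direction reversed, and the other 72 settings of these results stayed within 1.5 times or 1 SD. By counts, the shares of 16 classes moved, among them apolipoproteins to 6.74%, complement and coagulation factors to 4.09% and ribosomal proteins to 2.38%. No paired analysis was possible because each replicate number occurs once within wild-type. With 3 livers per sex, differences that miss the threshold are not shown to be absent.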
